A study of Mus musculus with 18 samples.

Results

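Transcripts of the proteasome were followed in 2 lung cancer cell lines of the mouse after the kinase DSTYK had been lowered or raised. The proteasome genes were the protein-coding genes whose symbol begins with Psm, one of the letters a to g and a number, without the immunoproteasome genes Psmb8 and Psmb9. This rule gave 48 of the 36047 genes with a listed transcript, of which 22028 were protein-coding. They comprised 7 alpha and 7 beta subunits of the core, 3 inducible or tissue-specific core subunits (Psma8, Psmb10 and Psmb11), 6 ATPases and 3 other subunits of the base, 8 subunits of the lid, 3 assembly chaperones of the base, 4 of the core, 5 activator genes and the regulator Psmf1. The pattern also took in Psmc3ip, which is named for an interaction with Psmc3 and is no subunit. The 14 alpha and beta genes and the 17 genes of base and lid are called the 31 constitutive subunits here.

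The 20S core is a barrel of alpha rings around beta rings, and the beta subunits Psmb5, Psmb6 and Psmb7 carry the peptide-cutting sites. The 19S regulatory particle caps the barrel: its base holds the ATPases that unfold a substrate and feed it in, and its lid holds Psmd14, which removes the ubiquitin chain. In mammalian cells the transcription factor NRF1, encoded by Nfe2l1, raises the subunit genes together when proteasome activity falls short, by binding antioxidant response elements in their promoters.

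RNA of 18 libraries was sequenced, 3 in each of 6 groups. Subunit protein, assembled proteasome and its activity were not measured in these libraries. LLC (Lewis lung carcinoma, strain C57BL/6, labelled lung adenocarcinoma) carried the sh3 construct in the vector TPLKO, for lower DSTYK, or empty TPLKO, and both arms had doxycycline. UN-SCC679 (strain A/J, labelled lung squamous carcinoma) carried the same sh3 construct or empty TPLKO, again with doxycycline in both arms. Lower DSTYK thus rests on sh3 alone, set against an empty vector, and other effects of carrying the construct cannot be told apart from it. A further pair of UN-SCC679 groups carried OE_DSTYKwt, wild-type DSTYK in the vector pLENTI6, or empty pLENTI6, and no treatment was named for them. The labels do not say that the 3 libraries of a group were separate cultures, so p-values measure the spread between libraries, which may be technical, and neither clones nor pools are named.

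Libraries held 40525385 to 46528071 estimated counts, and differences were tested with edgeR's quasi-likelihood test and Benjamini-Hochberg adjustment over all tested genes. A gene is called higher or lower at an adjusted p under 0.05, and CPM is the library's count scaled to a common total (TMM) within a comparison. Dstyk itself had 22.7, 24.0 and 22.5 CPM with sh3 and 42.8, 40.6 and 44.8 CPM with empty TPLKO in LLC. In UN-SCC679 it had 26.6, 26.7 and 25.1 CPM with sh3 against 36.5, 36.3 and 38.0 CPM with empty TPLKO, and 37.2, 37.4 and 38.6 CPM with OE_DSTYKwt against 29.6, 31 and 32.3 CPM with empty pLENTI6. In all 3 comparisons Dstyk moved as labelled and the libraries of the groups did not overlap. Of the defining markers, all 4 of lung adenocarcinoma had under 10 counts in each LLC empty TPLKO library. They summed to 0.195 to 0.2305 TPM there and to 41.76 to 43.9 TPM in UN-SCC679 with empty TPLKO. Sftpc, Napsa and Sftpb also had under 10 counts in each of those UN-SCC679 libraries, so nearly all of that sum came from the remaining marker. Of the 5 squamous markers, Krt5 and Dsg3 had under 10 counts in each UN-SCC679 library, while Trp63, Krt14 and Sox2 reached 10 counts in every UN-SCC679 group. All 5 had under 10 counts in each LLC library.

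Where the promoters bear on genes that move together, their letters are given. For 40 of the 48 genes RefSeq lists a start site on GRCm38.p6, and 250 bases before it to 50 after it were read. Shown here are the promoters of Psmb5 at chr14:54617946-54618245 (minus strand) and Psmb6 at chr11:70525107-70525406 (plus strand), catalytic subunits with a match to the core of the antioxidant response element, and that of Psmc4 at chr7:28050043-28050342 (minus strand), the ATPase with the largest fall in LLC, which had none. Capitals mark the match, and each runs 5′ to 3′ along its gene.

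Psmb5: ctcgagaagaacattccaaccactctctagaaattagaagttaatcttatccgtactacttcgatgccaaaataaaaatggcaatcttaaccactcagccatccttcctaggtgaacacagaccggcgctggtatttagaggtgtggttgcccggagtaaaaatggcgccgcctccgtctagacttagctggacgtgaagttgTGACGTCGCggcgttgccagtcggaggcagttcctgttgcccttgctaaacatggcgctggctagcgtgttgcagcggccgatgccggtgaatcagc
Psmb6: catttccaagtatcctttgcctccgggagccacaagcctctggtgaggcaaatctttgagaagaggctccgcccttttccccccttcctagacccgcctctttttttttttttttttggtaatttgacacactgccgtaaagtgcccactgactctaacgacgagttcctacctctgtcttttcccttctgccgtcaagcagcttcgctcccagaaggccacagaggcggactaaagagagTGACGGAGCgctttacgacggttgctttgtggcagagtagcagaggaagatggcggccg
Psmc4: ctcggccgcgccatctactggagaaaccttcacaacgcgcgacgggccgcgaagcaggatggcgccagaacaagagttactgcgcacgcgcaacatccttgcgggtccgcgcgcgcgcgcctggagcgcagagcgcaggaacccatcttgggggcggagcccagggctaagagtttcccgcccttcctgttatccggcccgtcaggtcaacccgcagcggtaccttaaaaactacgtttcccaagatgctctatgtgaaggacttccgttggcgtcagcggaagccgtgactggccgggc

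The motif searched was TGACNNNGC, where N is any base, on both strands (GCNNNGTCA on the other). It stood in 4 of the 25 constitutive subunits with a promoter, or 16% (95% exact binomial interval 4.54 to 36.1%), namely Psmb5, Psmb6, Psmc6 and Psmd12. Among all genes of the table it stood in 3781 of 27025, or 14%. CCAAT, read as ATTGG on the other strand, stood in 40% of the constitutive subunits and in 41.1% of all genes. In this 300-base window the subunit genes thus held both motifs about as often as other genes did. A match is a run of letters, not a measured binding site.

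In LLC, most constitutive subunits were lower with sh3. Of 31, 22 fell, 4 rose and 5 were not called, with a median log2 change of -0.25 beside 0.01 over all 13767 tested genes. This comparison called 72.6% of all tested genes, and 36.4% of all tested genes were called lower, so that any gene set held many called genes. The regulatory particle had 12 of 17 genes lower and 1 higher (median -0.33), and the core had 10 of 14 lower and 3 higher (median -0.18). Largest among the subunits was the fall of the ATPase Psmc4, 1.63-fold, whereas the base assembly chaperone Psmd5 and the lid subunit Psmd8 rose 1.47-fold and 1.34-fold. Over all 48 genes, 47 passed the filter on low counts, of which 31 fell, 6 rose and 10 were not called. In 39 of the 47 the libraries of the groups did not overlap, which held for 76.0% of all tested genes.

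**Figure D1:**
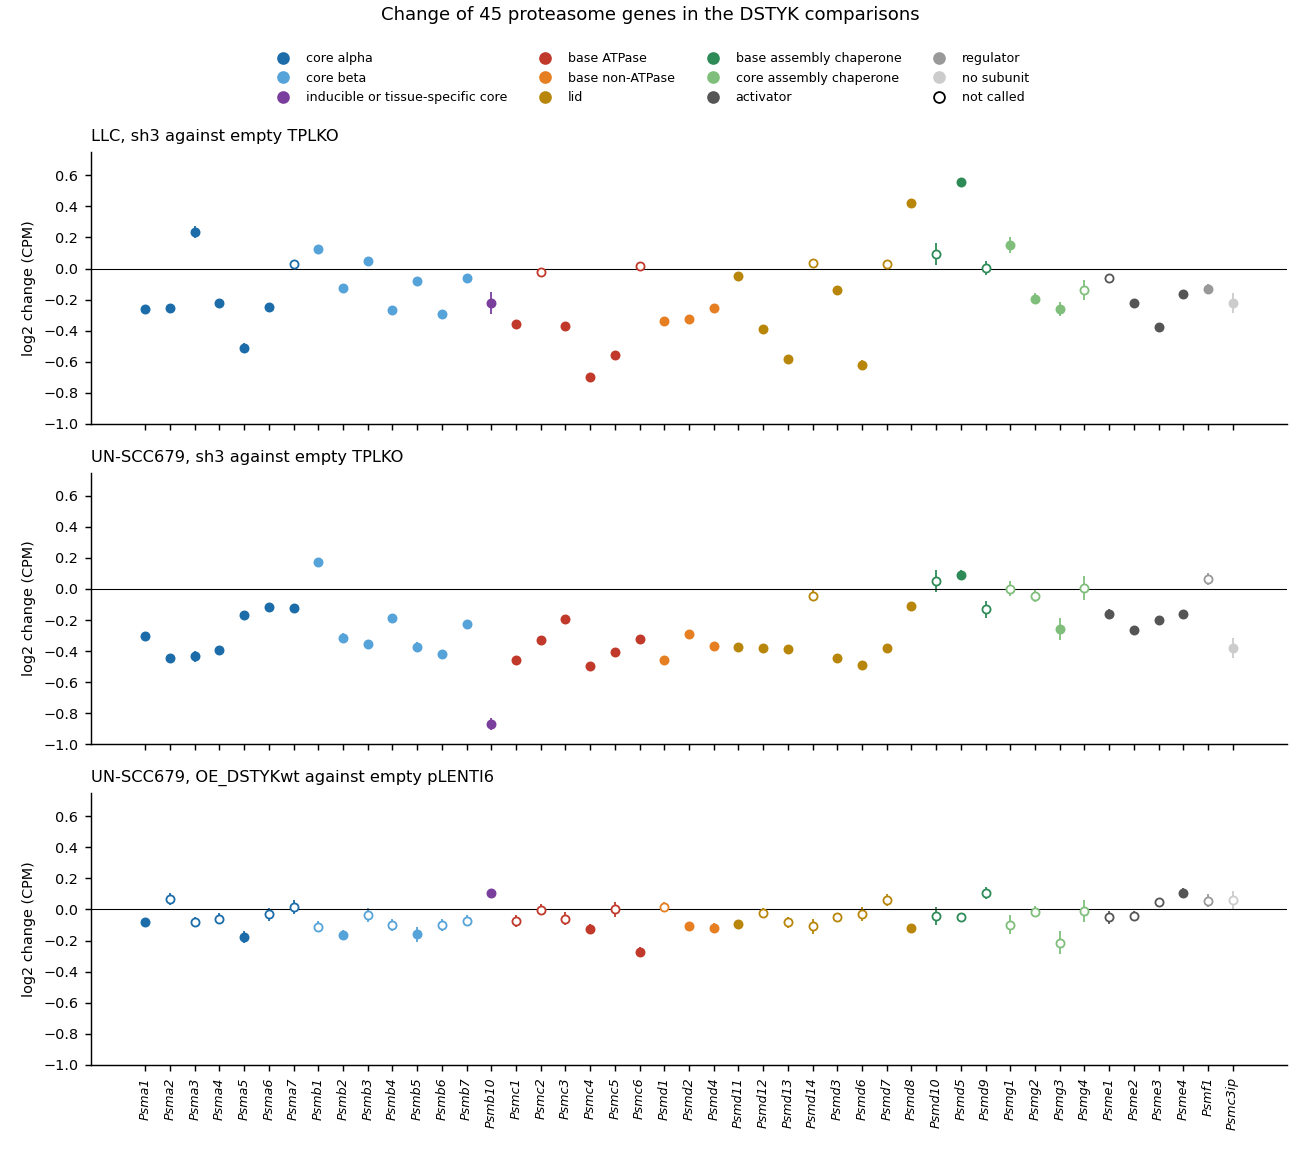
The log2 change of 45 proteasome genes is plotted by gene, ordered and coloured by role, in LLC with sh3, UN-SCC679 with sh3 and UN-SCC679 with OE_DSTYKwt, each against its own empty vector. Bars are standard errors (n = 3 libraries a group) and open points were not called; most filled points lie below 0 in both sh3 panels, and the OE_DSTYKwt points lie within -0.27 and 0.11. Psma8, Psmb11 and Psme2b, with few counts, are left out.

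Among the alpha subunits, which gate the entrance of the core, 5 of 7 fell in LLC. Psma5 had 93.4, 99 and 95.2 CPM with sh3 and 139, 137 and 133 CPM with empty TPLKO. The sh3 libraries were all under the empty ones, and the log2 change was -0.51 ± 0.026 (SE, n = 3 each; edgeR adjusted p 1.64e-09). Psma1, Psma2, Psma4 and Psma6 fell by 0.22 to 0.26 on the log2 scale. Psma3 went the other way, with 134, 137 and 146 CPM with sh3 and 114, 114 and 126 CPM with empty TPLKO. Its log2 change was 0.23 ± 0.039 (SE; edgeR adjusted p 1.37e-04), but over protein-coding transcripts alone it was -0.03 (edgeR adjusted p 0.925), so that the rise stood in transcripts not annotated as coding. Psma7, at 189, 192 and 191 CPM with sh3 and 188, 186 and 187 CPM with empty TPLKO, was not called.

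Of the beta subunits, 5 of 7 fell in LLC and 2 rose, all by 0.29 or less on the log2 scale. Psmb6, the caspase-like catalytic subunit, had 118, 116 and 112 CPM with sh3 and 138, 145 and 142 CPM with empty TPLKO. It fell by 0.29 ± 0.025 (log2, SE; edgeR adjusted p 1.97e-07), without overlap. The chymotrypsin-like Psmb5, with 131, 136 and 134 CPM with sh3 against 139, 141 and 145 CPM with empty TPLKO, changed by -0.08 (log2; edgeR adjusted p 0.00597), and under library-size scaling it was not called (adjusted p 0.0568). The trypsin-like Psmb7, with 171, 167 and 163 CPM with sh3 against 177, 178 and 168 CPM with empty TPLKO, overlapped between groups, and its call (log2 -0.06; edgeR adjusted p 0.0442) was lost without LLC empty TPLKO replicate 1 or 2 or LLC sh3 replicate 2 or 3 (adjusted p 0.0793 to 0.164), and under library-size scaling, a 1 CPM filter, coding transcripts or a length offset (adjusted p 0.0675 to 0.267). Psmb1, a beta subunit with no cutting site, rose, with 245, 256 and 251 CPM with sh3 and 235, 226 and 229.6 CPM with empty TPLKO (log2 0.12; edgeR adjusted p 1.67e-04). Psmb3 was called higher at a log2 change of 0.05 with overlapping libraries.

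Of the ATPases of the base, 4 of 6 were lower with sh3 in LLC and 2 were not called. Psmc4 had 83.9, 81.5 and 79.8 CPM with sh3 and 130.2, 134 and 135 CPM with empty TPLKO. All sh3 libraries were below all empty libraries, a log2 change of -0.70 ± 0.025 (SE; edgeR adjusted p 5.20e-11). Psmc5 had 118, 121 and 119.5 CPM with sh3 and 175, 176 and 174 CPM with empty TPLKO, again apart, a change of -0.56 ± 0.019 (log2, SE; edgeR adjusted p 3.39e-11). Psmc1 and Psmc3 fell by 0.36 and 0.37 on the log2 scale. Psmc2 and Psmc6, at -0.02 and 0.02, were not called, so the ring's 6 ATPases, which assemble in equal numbers, did not move by one amount. The large base scaffolds Psmd1 and Psmd2 and the ubiquitin receptor Psmd4 all fell. Psmd2 had 391, 389 and 383 CPM with sh3 and 485, 494 and 480.1 CPM with empty TPLKO (log2 -0.33 ± 0.016, SE; edgeR adjusted p 7.97e-10). Psmd4 had 109, 114 and 113 CPM with sh3 and 134, 134 and 133 CPM with empty TPLKO (log2 -0.26 ± 0.023, SE; edgeR adjusted p 3.38e-07).

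The lid moved both ways in LLC, with 5 of 8 genes lower, 1 higher and 2 not called. Psmd6, a scaffold subunit of the lid, had 46.4, 47.8 and 49.1 CPM with sh3 and 73.3, 73.9 and 72.8 CPM with empty TPLKO. Psmd13 had 64.8, 63.0 and 63.3 CPM with sh3 and 96.9, 95.1 and 94.6 CPM with empty TPLKO. Both pairs of groups were far apart, at log2 changes of -0.62 ± 0.030 for Psmd6 and -0.58 ± 0.025 for Psmd13 (SE; edgeR adjusted p 7.87e-10 and 2.93e-10). Psmd8, the last subunit to join the lid in yeast, was higher, with 117, 115 and 122 CPM with sh3 and 87.5, 87.5 and 88.9 CPM with empty TPLKO (log2 0.42 ± 0.025, SE; edgeR adjusted p 6.74e-09). The deubiquitinase Psmd14 had 149, 149 and 151 CPM with sh3 and 147, 147 and 144 CPM with empty TPLKO and was not called (log2 0.04; edgeR adjusted p 0.106). It was called higher under library-size scaling, a 1 CPM filter and protein-coding transcripts (edgeR adjusted p 0.0066, 0.0274 and 0.016).

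In LLC the activators were mostly lower with sh3, 4 of 5 called and a median log2 change of -0.22, whereas 2 of the 7 assembly chaperones rose, 2 fell and 3 were not called. Psmd5, a chaperone that binds base ATPases during assembly, had 158, 162 and 158 CPM with sh3 and 109.7, 107 and 107 CPM with empty TPLKO. This was the largest rise of the 47 genes, a log2 change of 0.56 ± 0.021 (SE; edgeR adjusted p 8.11e-11), while the other two base chaperones, Psmd9 and Psmd10, were not called. Of the core chaperones, Psmg3 fell by 0.26 on the log2 scale (28.1, 26.2 and 29.2 CPM with sh3, 33.2, 34.4 and 32.5 CPM with empty TPLKO) and Psmg2 by 0.20. Psmg1 had 25.4, 26.1 and 26.0 CPM with sh3 and 23.7, 21.3 and 24.8 CPM with empty TPLKO (log2 0.15; edgeR adjusted p 0.0195), a call lost without LLC empty TPLKO replicate 2 or LLC sh3 replicate 2 or 3, over coding transcripts and with a length offset (adjusted p 0.0572 to 0.111). Psme3, the nuclear activator PA28 gamma, had 220.3, 212 and 217 CPM with sh3 and 275, 285 and 282 CPM with empty TPLKO, a fall of 0.37 ± 0.019 (log2, SE; edgeR adjusted p 1.66e-09). Psme2 and Psme4 fell by 0.22 and 0.16, and Psme1, the partner of Psme2 in the interferon-induced PA28 ring, was not called (log2 -0.06; edgeR adjusted p 0.0523). Psmf1, an inhibitor of the core in vitro, changed by -0.13, and Psmc3ip by -0.22; the call of Psmf1 was lost over coding transcripts and with a length offset, and that of Psmc3ip over coding transcripts (adjusted p 0.347 to 0.552).

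Psme2b, a near-identical copy of Psme2, is uncertain because reads can be shared between the copies. It had 0 counts over the 3 LLC sh3 libraries and 44 over the 3 empty TPLKO libraries, at least 15.3-fold lower when 3 counts over the group are taken as the floor. Psma8, the testis form of an alpha subunit, had 18 counts over all 18 libraries and did not pass the filter. Psmb11, the thymus form of the chymotrypsin-like subunit, stayed between 0.214 and 0.495 CPM in LLC and was not called.

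In UN-SCC679 with sh3 the fall took in transcripts of nearly the whole particle. Of the 31 constitutive subunits 29 fell, 1 rose (Psmb1) and 1 was not called (Psmd14), with a median log2 change of -0.37 beside 0.01 over all 14271 tested genes. The comparison called 63.8% of all tested genes, and 32.0% of all tested genes were called lower. All 7 alpha subunits, 6 of 7 beta subunits, all 6 ATPases, all 3 other base subunits and 7 of 8 lid subunits fell, with class medians between -0.31 and -0.38. The falls lay close together, the largest being Psmc4 at -0.49. In 30 of the 31 subunits the libraries of the groups did not overlap, against 68.2% of all tested genes. Over all 47 genes that passed the filter, 36 fell, 2 rose and 9 were not called.

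Transcripts of both structural and catalytic core subunits fell in UN-SCC679. Psma4 had 311, 312 and 306 CPM with sh3 and 405, 409 and 406 CPM with empty TPLKO. The groups were apart, with a log2 change of -0.39 ± 0.017 (SE; edgeR adjusted p 3.09e-09). Psmb6 had 161, 161 and 156 CPM with sh3 and 209, 214 and 215 CPM with empty TPLKO (log2 -0.42 ± 0.021, SE; edgeR adjusted p 1.02e-08). Psmb5 fell by 0.37 and Psmb7 by 0.23 on the log2 scale, so all 3 catalytic subunits were lower. Psmb1 was the exception, with 243, 252 and 244 CPM with sh3 and 214, 224 and 218 CPM with empty TPLKO (log2 0.17 ± 0.024, SE; edgeR adjusted p 4.29e-05). The median over chromosome 17, where Psmb1 lies, was 0.25 (log2), and the part of that shift in the rise was not tested.

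Psmb10, the inducible partner that replaces Psmb7 in immunoproteasomes, had the largest fall of the 47 genes in UN-SCC679. It had 37.8, 36.4 and 34.5 CPM with sh3 and 65.4, 68.8 and 64.6 CPM with empty TPLKO. The groups were far apart, with a 1.83-fold fall, or -0.87 ± 0.040 on the log2 scale (SE; edgeR adjusted p 3.73e-09), where its chromosome 8 had a median of -0.19. Per length, Psmb10 stood at 29.08 ± 0.851% of Psmb7 in sh3 libraries and at 44.36 ± 1.2% in empty TPLKO libraries (TPM ratio, SD, n = 3 each). In LLC, Psmb10 had 15.8, 17.1 and 13.9 CPM with sh3 and 18.3, 18.4 and 17.9 CPM with empty TPLKO (log2 -0.22 ± 0.069, SE; edgeR adjusted p 0.0109), a call lost over protein-coding transcripts (adjusted p 0.107) and with a length offset (adjusted p 0.276).

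The other two immunoproteasome genes, which the rule leaves out, were higher with sh3 in both lines. Psmb8 had 53.7, 52.1 and 54.1 CPM with sh3 and 31.3, 28.7 and 31.9 CPM with empty TPLKO in UN-SCC679. Psmb9 had 10.6, 10.5 and 10.7 CPM with sh3 and 5.09, 5.16 and 6.27 CPM with empty TPLKO there. Both pairs were apart, at log2 changes of 0.80 and 0.94 (edgeR adjusted p 1.29e-08 and 2.41e-06), while Psmb10 went down. In LLC they were near the bottom of what was counted: Psmb8 had 2.79, 2.81 and 3.58 CPM with sh3 against 1.60, 1.23 and 1.53 CPM with empty TPLKO, and Psmb9 had 1.40, 1.28 and 1.37 CPM with sh3 against 0.285, 0.370 and 0.189 CPM with empty TPLKO. Their log2 changes in LLC were 1.06 and 2.26 (edgeR adjusted p 1.36e-04 and 2.14e-05).

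In the base and lid of UN-SCC679 the ATPase Psmc5 had 157, 157 and 155 CPM with sh3 and 208, 208 and 207 CPM with empty TPLKO (log2 -0.41 ± 0.019, SE; edgeR adjusted p 5.29e-09). Psmd1 had 292, 289 and 290.4 CPM with sh3 and 393, 398 and 408 CPM with empty TPLKO (log2 -0.46 ± 0.019, SE; edgeR adjusted p 1.81e-09). Psmd6 had 174, 175 and 172 CPM with sh3 and 241, 246 and 245 CPM with empty TPLKO (log2 -0.49 ± 0.020, SE; edgeR adjusted p 1.21e-09). In each of the 3 genes all sh3 libraries lay below all empty libraries. Psmd4 fell by 0.37 on the log2 scale. Psmd14 had 51.0, 51.0 and 52.0 CPM with sh3 and 50.4, 53.6 and 54.7 CPM with empty TPLKO; the groups overlapped and it was not called (log2 -0.04; edgeR adjusted p 0.301).

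**Figure D2:**
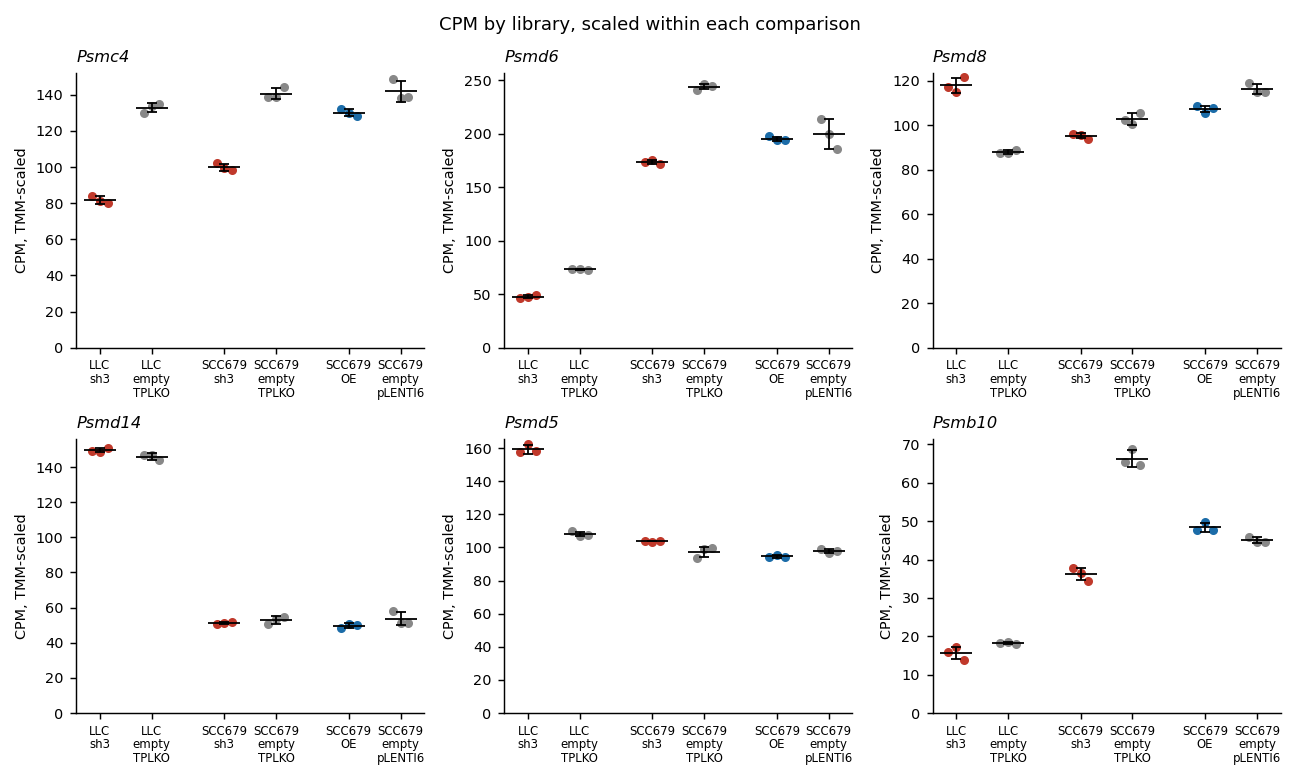
CPM of 6 proteasome genes is plotted for each library, with the mean and SD (n = 3) in black; each altered group stands left of its empty vector, and scaling was done within each comparison, so heights are compared within a pair. Psmc4 and Psmd6 are lower with sh3 in both lines, and Psmd8 and Psmd5 are clearly higher with sh3 in LLC. Psmd14 is not called in any pair, and Psmb10 falls most in UN-SCC679 with sh3.

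In UN-SCC679, 4 of 5 activator genes fell with sh3, as did 1 of the 7 assembly chaperones, while 1 rose and 5 were not called. Psme2 had 96.1, 93.0 and 94.6 CPM with sh3 and 113, 114 and 113 CPM with empty TPLKO (log2 -0.26 ± 0.024, SE; edgeR adjusted p 1.54e-06), and Psme1, Psme3 and Psme4 fell by 0.16 to 0.20. Psme2b, from few counts, was not called (log2 0.52; edgeR adjusted p 0.320). Of the chaperones, Psmg3 fell (17, 14.8 and 18.2 CPM with sh3, 20.5, 19.8 and 19.4 CPM with empty TPLKO; log2 -0.26; edgeR adjusted p 0.00723), a call lost with a length offset (adjusted p 0.0606). Psmd5 had 104 CPM in each sh3 library and 93.8, 98.9 and 99.5 CPM with empty TPLKO (log2 0.09; edgeR adjusted p 0.0115), a call lost without empty TPLKO replicate 1 (adjusted p 0.056), over coding transcripts (adjusted p 0.581) and with a length offset (adjusted p 0.0653). The other chaperones and Psmf1 were not called, and Psmc3ip changed by -0.38 (edgeR adjusted p 2.60e-04), a call lost over protein-coding transcripts, where it was 0.003 (adjusted p 0.988).

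Other cell-type markers moved with sh3 in UN-SCC679. The summed level of 5 fibroblast markers was 3102 to 3159 TPM with sh3 and 3881 to 3992 TPM with empty TPLKO, with Lum at 0 in empty TPLKO libraries. Of the 4 fibroblast markers tested 3 rose (Col1a1, Dcn and Pdgfrb), and the sum followed Col1a2, which fell by 0.44 (log2). The sum of 5 epithelial markers was 337.9 to 355 TPM with sh3 and 540.4 to 565.4 TPM with empty TPLKO, with Krt19 at 0 in the empty TPLKO libraries. Krt8 and Krt18 fell, and Krt19, at a mean of 0.318 CPM with sh3, was called higher. That of 5 squamous markers was 49.02 to 52.42 TPM with sh3 and 31.81 to 37.27 TPM with empty TPLKO, with Trp63 and Krt14 called higher and Sox2 not called. In LLC the 5 fibroblast markers summed to 20.71 to 21.53 TPM with sh3 and 14.17 to 16.36 TPM with empty TPLKO, 3 of them higher and 2 lower. The part of these shifts in the proteasome values was not tested, and in bulk RNA fewer cells of a type and less RNA per cell cannot be told apart.

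The 2 sh3 comparisons share no library, and their calls can be set side by side. All 22 constitutive subunits that fell in LLC also fell in UN-SCC679, which is 100% of the LLC calls and 75.9% of the 29 UN-SCC679 calls. With 29 of 31 lower in UN-SCC679, such an overlap is nearly fixed. Psmb1 rose in both lines, as did Psmd5. Psma3, Psmb3 and Psmd8 rose in LLC and fell in UN-SCC679. Over all proteasome genes that passed the filter, 28 fell in both lines, 90.3% of the 31 LLC calls and 77.8% of the 36 UN-SCC679 calls. With 36 of 47 lower in UN-SCC679, a large part of this overlap is fixed too. The share of all tested genes that were lower in both lines was not computed.

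The difference between the lines was tested as an interaction on 12 libraries, and 31 of 47 genes were called, 20 with a higher and 11 with a lower change in LLC. This test called 59.9% of all tested genes, 28.1% higher and 31.9% lower, so any gene set held many called genes. The largest positive differences were Psma3 at 0.66 ± 0.058, Psmb10 at 0.65 ± 0.081 and Psmd8 at 0.53 ± 0.036 (log2, SE; edgeR adjusted p 5.00e-08, 3.32e-06 and 2.32e-09). The negative side, where LLC fell more, was led by Psme2b, whose fitted value rests on 0 counts and is no bound, then Psma5 at -0.35 ± 0.038 and Psmc4 at -0.21 ± 0.038 (log2, SE; edgeR adjusted p 5.95e-07 and 1.24e-04). Of the constitutive subunits, 18 differed upward and 7 downward, with a median of 0.12 beside -0.03 over all tested genes. Psmb1 and Psmd14 were not called in this test. The medians moved with the processing: DESeq2 gave 0.16 beside 0.01, with 20 subunits upward and 7 downward. A length offset gave 0.15 beside 0.02, with 19 and 5, and library-size scaling 0.09 beside -0.06, with 17 and 10. The interaction of Psma3 was not called over protein-coding transcripts (0.57; edgeR adjusted p 0.158).

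**Figure D3:**
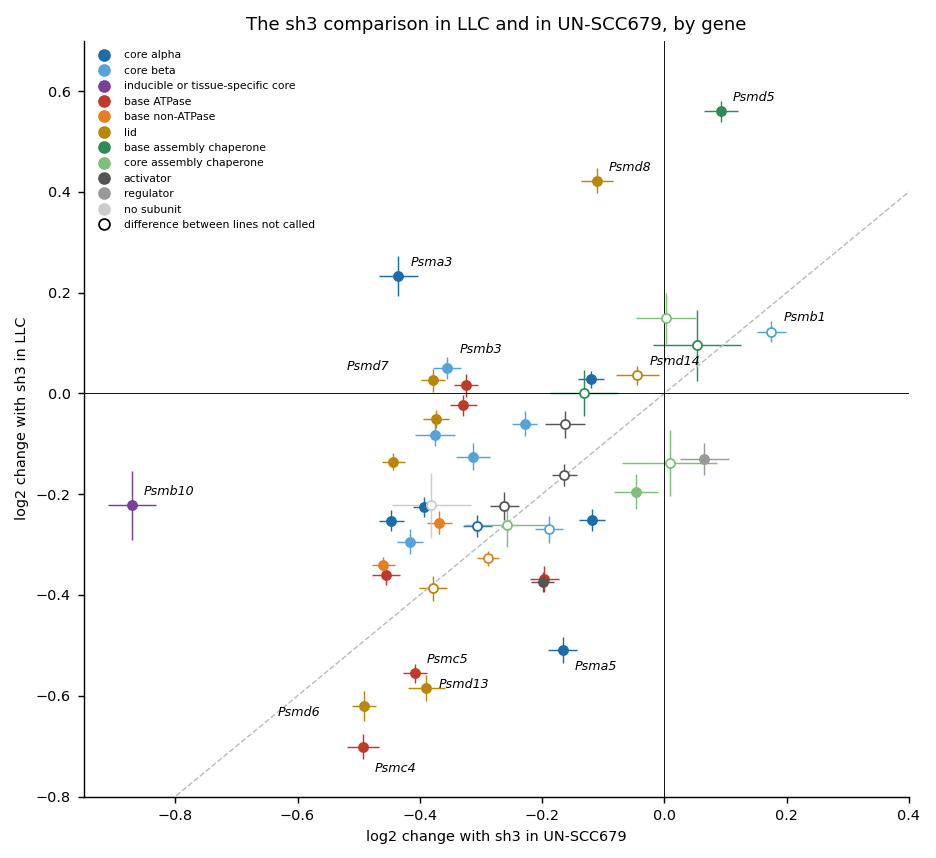
Each point is a proteasome gene, with its log2 change with sh3 in LLC on the vertical axis and in UN-SCC679 on the horizontal axis; bars are standard errors, the dashed line marks equal changes, and filled points were called in the interaction test. Most points lie in the lower left part; Psmd8 and Psma3 stand in the upper left, Psmd5 and Psmb1 in the upper right, and Psmb10 farthest to the left.

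The OE_DSTYKwt comparison in UN-SCC679 gave smaller differences, in which 1 library of the empty vector weighed heavily. Dstyk itself also changed less there, by 0.285 (log2), against -0.495 with sh3 in UN-SCC679 and -0.890 with sh3 in LLC. With OE_DSTYKwt, 10 of 31 constitutive subunits were lower, 0 higher and 21 not called, with a median log2 change of -0.08 beside 0.003 over all 13975 tested genes, and 26 of 31 below 0. The comparison called 29.7% of all tested genes, and 15.2% of all tested genes were called lower. The first empty pLENTI6 library was the highest of the 6 libraries in 29 of the 31 subunits and also stood apart from its group over all genes (mean chi-square per gene of 12.2 and 13.8 against the other two, 5.04 or less in any other pair). Without it, 12 constitutive subunits were lower and 3 higher, and 34.7% of all genes were called, with a median log2 change of the constitutive subunits of -0.05; without empty pLENTI6 replicate 2 or 3, 7 and 12 were lower. Without OE_DSTYKwt replicate 1, 2 or 3, 6, 3 and 4 were lower. No constitutive subunit above 0 had an unadjusted p under 0.05 by edgeR, and DESeq2 called 11 lower and 0 higher. In 18 of the 31 the libraries did not overlap, against 46.0% of all tested genes.

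Among the subunits, the ATPase Psmc6 showed the largest difference with OE_DSTYKwt. It had 184, 186 and 187 CPM with OE_DSTYKwt and 233, 219 and 219.8 CPM with empty pLENTI6. All 3 OE_DSTYKwt libraries were lower, a log2 change of -0.27 ± 0.030 (SE; edgeR adjusted p 1.54e-04), and the call held with each of the 6 libraries left out in turn. Psma5 had 311, 309.5 and 314 CPM with OE_DSTYKwt and 376, 341 and 339.5 CPM with empty pLENTI6 (log2 -0.18 ± 0.040, SE; edgeR adjusted p 0.00862). Psmb2, a beta subunit with no cutting site, had 88.5, 87.1 and 88.3 CPM with OE_DSTYKwt and 103, 97.9 and 94.8 CPM with empty pLENTI6 (log2 -0.16 ± 0.034, SE; edgeR adjusted p 0.00542). Both of these kept their calls with each library left out, with the groups apart and the first empty library highest.

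The remaining calls with OE_DSTYKwt were of 0.16 or less on the log2 scale. Psmd2 had 545 CPM in each OE_DSTYKwt library and 589, 578 and 591 CPM with empty pLENTI6 (log2 -0.10; edgeR adjusted p 0.0106). Psmd8 had 108, 106 and 108 CPM with OE_DSTYKwt and 119, 115 and 115 CPM with empty pLENTI6 (log2 -0.12; edgeR adjusted p 0.00916). The groups did not overlap in either. Psmd4 and Psmc4 changed by -0.12, Psmd11 by -0.09 and Psma1 by -0.08. Of the catalytic subunits, Psmb5 had 68.4, 67.8 and 67.1 CPM with OE_DSTYKwt and 82.7, 73.6 and 71.2 CPM with empty pLENTI6 (log2 -0.16; edgeR adjusted p 0.0365), a call lost without any 1 OE_DSTYKwt library (adjusted p 0.087 to 0.111) and without empty pLENTI6 replicate 2 (adjusted p 0.0513). With single OE_DSTYKwt libraries left out, Psmd4 lost its call in all 3 cases, Psmd2 without replicate 2 or 3 and Psmd8 without replicate 2 (adjusted p 0.0518 to 0.094). Psma1 and Psmd11 likewise lost theirs in all 3 cases, and Psmc4 without replicate 2 or 3 (adjusted p 0.0531 to 0.167). Without empty pLENTI6 replicate 2, Psma1 and Psmd11 were not called either (adjusted p 0.105 and 0.0509), nor was Psma1 without replicate 3 (adjusted p 0.0521). Without the first empty pLENTI6 library, Psmb5 stood at -0.10 (log2). Psmb6, Psmb7 and Psmd14, at -0.10, -0.07 and -0.11, were not called, though Psmb6 was without empty pLENTI6 replicate 3 (adjusted p 0.0113).

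Outside the constitutive set, 2 genes were higher with OE_DSTYKwt. Psmb10 had 47.7, 49.7 and 47.7 CPM with OE_DSTYKwt and 45.9, 44.7 and 44.5 CPM with empty pLENTI6 (log2 0.10 ± 0.031, SE; edgeR adjusted p 0.030). Psme4, the activator PA200, had 168, 172 and 171 CPM with OE_DSTYKwt and 150.1, 162 and 163 CPM with empty pLENTI6 (log2 0.11 ± 0.034, SE; edgeR adjusted p 0.0443). The libraries of both genes were apart, yet the call of Psmb10 was lost without empty pLENTI6 replicate 2 or 3 and without any 1 OE_DSTYKwt library (adjusted p 0.0556 to 0.125), and by DESeq2 (adjusted p 0.132). That of Psme4 was lost without empty pLENTI6 replicate 2 and without any 1 OE_DSTYKwt library (adjusted p 0.0625 to 0.153), and its log2 change was 0.07 without the first empty pLENTI6 library. Over protein-coding transcripts neither was called (adjusted p 0.107 for Psmb10 and 0.058 for Psme4). None of the 7 assembly chaperones was called by edgeR, where Psmg3 (log2 -0.21; unadjusted p 0.0149, edgeR adjusted p 0.0501) and Psmd9 (log2 0.11; unadjusted p 0.0278, edgeR adjusted p 0.0794) were the 2 under an unadjusted p of 0.05, and DESeq2 called 1 gene outside the constitutive subunits lower. Psmb8 and Psmb9, at 0.10 and -0.18, were not called.

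Markers of other cell types moved with OE_DSTYKwt too. The 5 epithelial markers summed to 763.4 to 801.9 TPM with OE_DSTYKwt and 930.9 to 966.6 TPM with empty pLENTI6, with both tested genes, Krt8 and Krt18, lower. The 5 squamous markers summed to 64.08 to 66.05 TPM with OE_DSTYKwt and 68 to 73.56 TPM with empty pLENTI6, with Trp63 and Krt14 higher and Sox2 lower. The 5 fibroblast markers summed to 1447 to 1469 TPM with OE_DSTYKwt and 1352 to 1458 TPM with empty pLENTI6, with Col1a1 and Pdgfrb higher of 3 tested. Their part in the proteasome values was not tested.

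Neither UN-SCC679 experiment used a library of the other. All 10 subunits that were lower with OE_DSTYKwt were also lower with sh3, 34.5% of the 29 lower with sh3; with 29 of 31 lower with sh3, such an overlap is nearly fixed. Without the first empty pLENTI6 library, Psma2, Psma7 and Psmd7 were called higher with OE_DSTYKwt (log2 0.10, 0.07 and 0.11; edgeR adjusted p 0.0226, 0.0468 and 5.25e-04) and Psmb1 lower (log2 -0.07; edgeR adjusted p 0.0394), each opposite to its call with sh3. With all libraries, Psmb10 and Psme4 were called higher with OE_DSTYKwt and lower with sh3. The OE_DSTYKwt effect minus the sh3 effect was called in 32 of 47 genes, 30 upward and 2 downward, where 51.9% of all tested genes were called. It was largest for Psmb10 at 0.97 ± 0.052, Psma2 at 0.51 ± 0.047 and Psmd1 at 0.48 ± 0.031, and the 2 downward genes were Psmb1 at -0.29 ± 0.047 and Psmd5 at -0.14 ± 0.036 (log2, SE; edgeR adjusted p 1.41e-09, 3.79e-07, 1.20e-08, 1.27e-04 and 0.00459). Vector and doxycycline differ between these experiments and cannot be told apart from the DSTYK arms in this difference. The call of Psmd5 was lost over coding transcripts and with a length offset (adjusted p 0.106 and 0.298).

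Summed levels followed the single genes. Levels between genes are given per transcript length, as TPM, a share of all transcripts corrected for length. The 14 core genes summed to 3329, 3364 and 3290 TPM with sh3 and 3632, 3619 and 3617 TPM with empty TPLKO in LLC. In UN-SCC679 they summed to 4768, 4792 and 4691 TPM with sh3 and 5648, 5723 and 5666 TPM with empty TPLKO. In both lines each sh3 library was below each empty one. With OE_DSTYKwt the core summed to 5097, 5119 and 5132 TPM, against 5446, 5260 and 5143 TPM with empty pLENTI6, where the third empty library came close to the OE_DSTYKwt libraries. The base summed to 1313 TPM with sh3 and 1653 TPM with empty TPLKO in LLC, and the lid to 1055 TPM with sh3 and 1144 TPM with empty TPLKO. In UN-SCC679 the base summed to 1842 TPM with sh3 and 2378 TPM with empty TPLKO, and the lid to 1316 TPM with sh3 and 1710 TPM with empty TPLKO (means, n = 3). The 7 assembly chaperones stood at 411.3 TPM with sh3 and 391.5 TPM with empty TPLKO in LLC, and at 332.6 TPM with sh3 and 335.6 TPM with empty TPLKO in UN-SCC679.

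**Figure D4:**
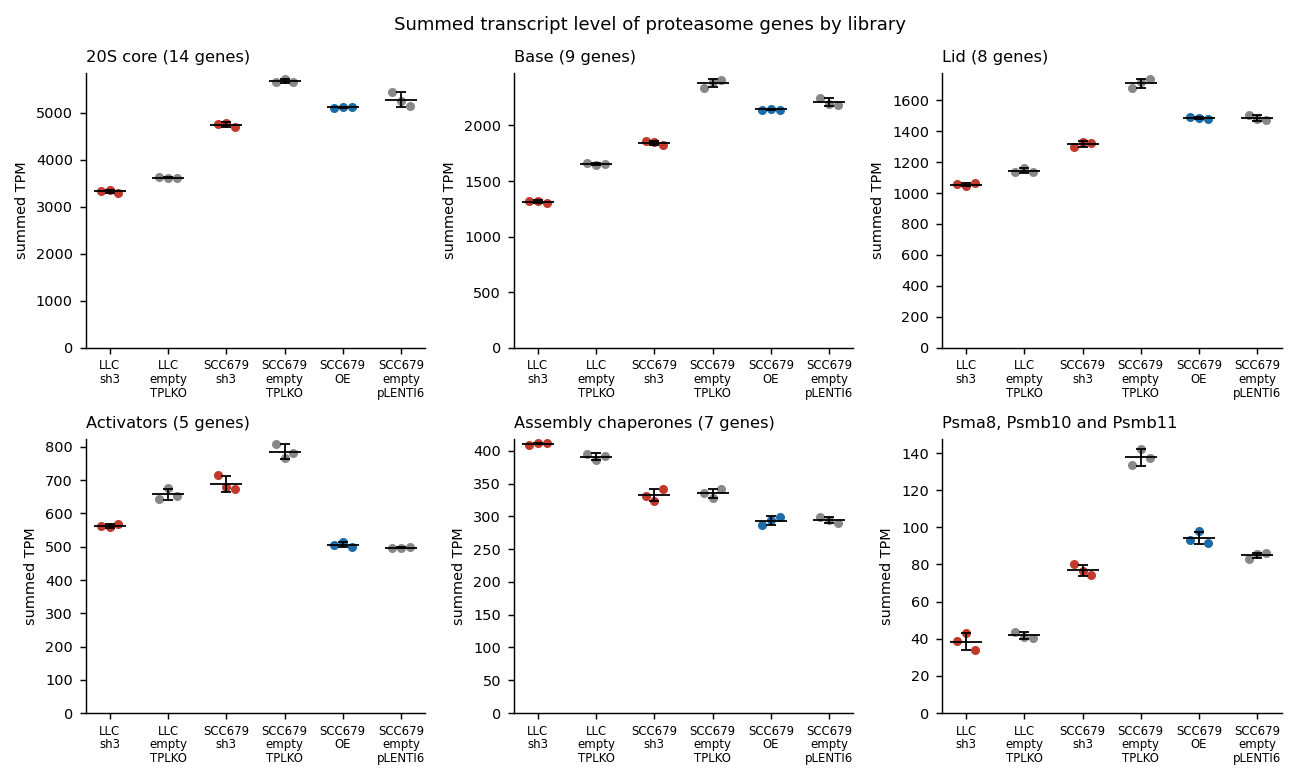
Summed TPM of 6 sets of proteasome genes is plotted for each library in 6 groups, with the mean and SD (n = 3) in black and each altered group left of its empty vector. Core, base, lid and activators are lower with sh3 in both lines, the assembly chaperones are not, and the OE_DSTYKwt libraries lie beside their empty pLENTI6 libraries.

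The mean level of a core gene was 1.71 ± 0.0224 times that of a regulatory particle gene with sh3 and 1.57 ± 0.00583 times with empty TPLKO in LLC (SD, n = 3 each). In UN-SCC679 it was 1.83 ± 0.0132 times with sh3 and 1.69 ± 0.0247 times with empty TPLKO, and 1.71 ± 0.00904 times with OE_DSTYKwt and 1.74 ± 0.0262 times with empty pLENTI6. In both sh3 comparisons the 3 altered libraries had the higher ratio without overlap, as the regulatory particle fell further than the core. With OE_DSTYKwt the ratios of the groups overlapped. The ratio of the deubiquitinase Psmd14 to the ubiquitin receptor Psmd4 was 118.2 ± 4.01% with sh3 and 97.39 ± 1.46% with empty TPLKO in LLC, and 22.52 ± 0.495% with sh3 and 18.15 ± 0.353% with empty TPLKO in UN-SCC679 (TPM, SD, n = 3 each).

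The lines differed more in the make-up of their proteasome transcripts than the DSTYK arms did. With empty TPLKO, LLC had 27 of 31 constitutive subunits lower than UN-SCC679 and 3 higher, with a median log2 difference of -0.48 beside -0.01 over all genes. Of all tested genes 82.9% were called, 40.9% higher and 42.0% lower, and 84.3% did not overlap between the lines, against all 31 of these subunits. The libraries are also the empty arms of the sh3 comparisons, and line, strain and source file go together. Psmd14 had 145, 144 and 141 CPM in LLC and 49.8, 52.9 and 54.0 CPM in UN-SCC679, 2.75-fold higher in LLC (log2 1.46 ± 0.031, SE; edgeR adjusted p 1.13e-12). Psmb5 had 136, 139 and 142 CPM in LLC and 68.8, 67.1 and 66.4 CPM in UN-SCC679 (log2 1.04 ± 0.025, SE; edgeR adjusted p 3.61e-12). Both were clearly apart and ran against most other subunits, as did the chaperone Psmg3 (log2 0.74).

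On the other side, Psmb10 had 18, 18.1 and 17.6 CPM in LLC and 64.6, 67.9 and 63.8 CPM in UN-SCC679, 3.66-fold lower in LLC (log2 -1.87 ± 0.039, SE; edgeR adjusted p 9.87e-13). Psmd6 had 72.2, 72.6 and 71.3 CPM in LLC and 238, 243 and 242 CPM in UN-SCC679 (log2 -1.74 ± 0.021, SE; edgeR adjusted p 9.12e-15). No library of one line reached the other in either gene. Psme2b (log2 -2.88) was lower too, from few counts. Psmb8 and Psmb9 differed in the direction of Psmb10, at -4.39 and -4.29 (log2). Psma4 and Psmb4 differed by -1.62 and -1.60, and Psma5 by -1.38, with a chromosome 3 median of -0.68 beside Psmb4 and Psma5.

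Per length and over all transcripts, the core genes were more even in LLC than in UN-SCC679. With empty TPLKO in LLC the levels ran from 161.4 TPM (Psma2) to 362.4 TPM (Psma7), a 2.25-fold range, and 4 of 13 neighbours in the order overlapped between libraries. In UN-SCC679 with empty TPLKO they ran from 148.7 TPM (Psmb5) to 1041 TPM (Psmb4), a range of about 7-fold, and 3 of 13 neighbours overlapped. In the regulatory particle, Psmd2 was highest in both lines, at 277.1 TPM in LLC and 359.8 TPM in UN-SCC679. The lowest was Psmd6 in LLC, at 101.1 TPM, and Psmd14 in UN-SCC679, at 63.14 TPM, while Psmd6 in UN-SCC679 stood at 334.6 TPM and overlapped with Psmd4 and Psmc6 beside it. Of the chaperones Psmd5 was highest and Psmd10 lowest in both lines. The top value of Psmb4 rests on how reads were shared among its transcripts: over coding transcripts alone it was 261 TPM in UN-SCC679 with empty TPLKO. In LLC with empty TPLKO, coding transcripts held 13.5 ± 2.78% of the counts of Psma3 and 46.13 ± 2.04% of those of Psmb4 (SD, n = 3). The ranges over coding transcripts alone were not compared.

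**Figure D5:**
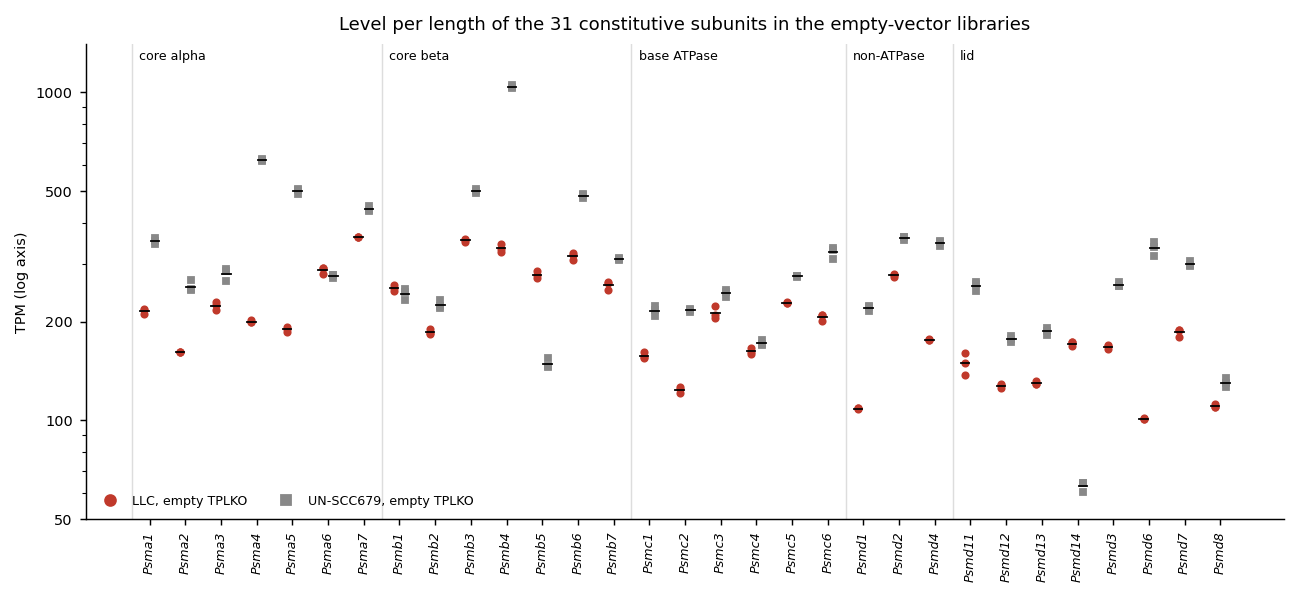
TPM (log axis) of each of the 31 constitutive subunits is plotted for the 3 LLC and the 3 UN-SCC679 libraries with empty TPLKO, with the mean as a bar, ordered by role. UN-SCC679 lies above LLC in most genes, Psmb5 and Psmd14 are the clear exceptions, and Psmb4 in UN-SCC679 reaches 1041 TPM.

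The 2 empty vectors of UN-SCC679 also differed. With empty TPLKO and doxycycline against empty pLENTI6, 16 of 31 constitutive subunits were higher and 6 lower (median log2 0.10, all genes -0.01), where 68.7% of all tested genes were called, 33.3% higher and 35.4% lower. Over protein-coding transcripts the median was 0.05, with 13 higher and 5 lower, and with a length offset 0.02, with 11 higher and 5 lower; which libraries were single-end or paired-end is not given in the sources used here. Psme4 had 287, 291 and 290.5 CPM with empty TPLKO and 147, 159.9 and 161 CPM with empty pLENTI6 (log2 0.89 ± 0.037, SE; edgeR adjusted p 2.17e-08). Psma3 had 146, 154 and 142 CPM with empty TPLKO and 265, 249 and 247 CPM with empty pLENTI6 (log2 -0.78 ± 0.040, SE; edgeR adjusted p 9.14e-08). The groups were apart in both. Psmb10 and Psma2 were higher by 0.57 and 0.49, and Psmd9 and Psmd10 differed by -0.29 (log2), with the call of Psmd9 lost under a length offset (adjusted p 0.959). With OE_DSTYKwt, a comparison that shares the empty pLENTI6 libraries, Psme4, Psma3, Psmb10 and Psma2 stood at 0.11, -0.08, 0.10 and 0.07, and only Psme4 and Psmb10 of the 4 were called.

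Genes that work with the proteasome were counted from lists. With sh3, 36.2% of all tested genes were called higher and 36.4% lower in LLC, and 31.8% higher and 32.0% lower in UN-SCC679. With OE_DSTYKwt, 14.6% of all tested genes were called higher and 15.2% lower. These shares stand beside every list count here and below. Of 2 subunits whose symbols lie outside the pattern, the ubiquitin receptor Adrm1 fell with sh3 by 0.28 in LLC and 0.49 in UN-SCC679 (log2), and Sem1 fell by 0.22 in LLC and rose by 0.12 in UN-SCC679. The 15 tested proteasome-associated genes, which deliver or trim ubiquitin or help assembly, had 6 higher and 6 lower with sh3 in LLC (median log2 -0.01) and 2 higher and 12 lower in UN-SCC679 (median -0.20). With OE_DSTYKwt, 3 were higher and 7 lower (median -0.07). Uchl5, a proteasome-bound deubiquitinase, had 38.6, 38.4 and 37.4 CPM with sh3 and 66.5, 64.2 and 62.1 CPM with empty TPLKO in UN-SCC679 (log2 -0.75; edgeR adjusted p 3.78e-09), and rose by 0.24 in LLC. Ubqln2, a shuttle factor, fell in all 3 comparisons, by 0.65 with sh3 in LLC, by 0.37 with sh3 in UN-SCC679 and by 0.71 with OE_DSTYKwt. Pomp, a chaperone of the core, fell in all 3 too, by 0.15, 0.10 and 0.35 in the same order.

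The NRF1 list held Nfe2l1 itself, Nfe2l2, Nfe2l3, Mafg, Mafk, Maff, Ngly1 and Ddi2. Of these, 7 were tested in LLC, 3 higher and 4 lower with sh3. In UN-SCC679 8 were tested, 2 higher and 4 lower with sh3 and 2 higher and 3 lower with OE_DSTYKwt. Nfe2l1 had 559.5, 554 and 548 CPM with sh3 and 443, 451 and 442 CPM with empty TPLKO in LLC (log2 0.32; edgeR adjusted p 5.42e-10). In UN-SCC679 it had 352, 346 and 348 CPM with sh3 and 423, 422 and 434 CPM with empty TPLKO (log2 -0.29; edgeR adjusted p 7.21e-08). Its transcript thus moved in opposite directions in the lines (difference 0.60 ± 0.0245, log2, SE; edgeR adjusted p of the interaction 4.05e-12). The part of NRF1 in the subunit changes was not tested. Ngly1, the enzyme that removes sugar chains from NRF1, had 8.95, 8.69 and 8.79 CPM with sh3 and 27.1, 26.9 and 30.4 CPM with empty TPLKO in LLC, a 3.19-fold fall (log2 -1.68; edgeR adjusted p 5.74e-11), and changed by 0.08 with sh3 and 0.22 with OE_DSTYKwt in UN-SCC679. Ddi2, the protease that cuts NRF1, fell by 0.36 in LLC and was not called with sh3 in UN-SCC679.

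The 12 genes of the p97 segregase and of ubiquitin supply had 5 higher and 6 lower with sh3 in LLC, 1 higher and 8 lower in UN-SCC679, and 1 each way with OE_DSTYKwt. Vcp, which encodes p97, fell with sh3 in both lines: it had 398, 398 and 397 CPM with sh3 against 505, 509.5 and 504 CPM with empty TPLKO in LLC, and 838, 835 and 826 CPM with sh3 against 1127, 1140.0 and 1154 CPM with empty TPLKO in UN-SCC679. The log2 changes were -0.35 and -0.45 (edgeR adjusted p 9.84e-11 and 3.62e-10). Of 10 genes that process and present peptides on MHC class I, 7 were higher and 2 lower with sh3 in LLC (median log2 0.54), 5 higher and 4 lower in UN-SCC679 (median 0.06), and 1 higher and 2 lower with OE_DSTYKwt. The peptide transporter Tap1 had 12.7, 14.3 and 14.7 CPM with sh3 and 4.04, 3.79 and 4.18 CPM with empty TPLKO in LLC (log2 1.79; edgeR adjusted p 6.73e-10), and rose by 0.58 with sh3 in UN-SCC679. Tap1 was not called with OE_DSTYKwt (log2 -0.05; edgeR adjusted p 0.684).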

How the data were processed

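Expression was measured by RNA-seq in 18 libraries, 3 in each of 6 groups, which were taken from the sample titles. Per the labels' protocols, a stranded Illumina mRNA kit and 75-base NextSeq reads were used, and single-end and paired-end runs are both named. The submitters' processing notes name mm10, kallisto and sleuth, without versions. The authors deposited an expected count (kallisto's estimated count) and an effective length in bases for each transcript, per the file headers, with no normalization; their own TPM were not used. Shared reads make near-identical copies uncertain.

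Of 118489 listed transcripts, 1673 (0.515 to 0.593% of a library's counts) matched no gene of GENCODE M21 (GRCm38) and stayed out. Estimated counts were summed per gene, rounded, and tested in R 4.3.3 with edgeR 4.0.16 (TMM, default filter, at least 10 counts and 15 in total, quasi-likelihood test, Benjamini-Hochberg adjustment over all tested genes, called under 0.05). Each comparison used its 6 libraries, and interactions used 12. Standard errors come from the F statistic. TPM were computed from estimated counts and effective lengths. Floors are 3 counts, and intervals and floors cover counting error only, as reads carry no molecular identifiers. The script was tested on simulated data. Promoters are RefSeq's. Alternatives were DESeq2 1.42.0, library-size scaling, other filters, a replicate block, protein-coding transcripts, a length offset and each library left out.

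The genes and lists were chosen with earlier results of these data known. Every proteasome gene was accounted for; those given with statistics are, per comparison, the called gene with the smallest adjusted p in each role and direction, called genes with an absolute log2 change of 0.5 or more, Psmb5, Psmb6, Psmb7, Psmb10, Psmd4 and Psmd14, and the 3 largest called differences each way in the other contrasts; others were named after their values were seen. Same-numbered replicates did not clearly deviate together (in no comparison was every correlation over 0.1), and libraries were not paired in the main test. Small correlations cannot exclude that the numbers pair libraries, and the replicate block was run as an alternative. Protein sequences were not used here.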

Additional observations from a re-analysis of the deposited data

Results flagged for a closer look

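The sh3 effect differed between LLC and UN-SCC679 in 31 of the 47 tested proteasome genes, by edgeR's interaction test on 12 libraries. That test called 59.9% of all tested genes, so any gene set held many called genes. As the effect in LLC minus the effect in UN-SCC679 on the log2 scale, the difference was 0.66 for Psma3, 0.65 for Psmb10, 0.53 for Psmd8, -0.35 for Psma5 and -0.21 for Psmc4. Psmd8 rose in LLC and fell in UN-SCC679, and Psmb10 fell in both lines and further in UN-SCC679. Psme2b stood at -7.42, from 0 counts over the LLC sh3 libraries, so the value is no bound, and its reads can be shared with Psme2. The difference of Psma3 was 0.57 and not called over protein-coding transcripts (edgeR adjusted p 0.158).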

How the results depend on the processing

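Tallied here are the proteasome genes picked by the naming rule, not the list genes, nor genes named after their values were seen. Over the alternatives, 942 of the values of these single genes kept their direction and their side of the threshold, 50 lost their call, 4 gained one and 4 changed sign. The 4 were, over protein-coding transcripts, Psma3 in LLC with sh3 (-0.0268), Psmf1 there (0.0372) and Psmc3ip in UN-SCC679 with sh3 (0.00317), and, under library-size scaling, Psmd14 in UN-SCC679 with sh3 (0.0155); all are log2 changes not called by edgeR, Psmd14 was not called before either, and the cause was not tested.

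With each library left out in turn, the called proteasome genes with OE_DSTYKwt ranged from 3 to 20 and the constitutive subunits called lower from 3 to 12, the highest without empty pLENTI6 replicate 1 (also 12 without replicate 3) and the lowest without OE_DSTYKwt replicate 2; the constitutive subunits lower in empty TPLKO than in empty pLENTI6 ranged from 3 to 6. The count lower with sh3 ranged from 20 to 22 in LLC and was 29 throughout in UN-SCC679. With library-size scaling it was 19 and 28.

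With the replicate number as a block the proteasome genes called were 38 in LLC and 39 in UN-SCC679 with sh3 and 10 with OE_DSTYKwt, against 37, 38 and 12; the call of Psmb10 with OE_DSTYKwt was lost (adjusted p 0.058).

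Over protein-coding transcripts the core summed to 2788 TPM with sh3 and 3124 TPM with empty TPLKO in LLC, 3849 TPM with sh3 and 4600 TPM with empty TPLKO in UN-SCC679, and 4509 TPM with OE_DSTYKwt and 4668 TPM with empty pLENTI6. The regulatory particle then summed to 2119 TPM with sh3 and 2528 TPM with empty TPLKO in LLC, 2877 TPM with sh3 and 3705 TPM with empty TPLKO in UN-SCC679, and 3465 TPM with OE_DSTYKwt and 3533 TPM with empty pLENTI6. With an A required after the motif the share was 4% of constitutive subunits and 3.45% of all genes. Depth limits Psma8, Psmb11 and Psme2b, at under 5 CPM in every library.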

Other observations

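Transcripts annotated as coding held most but not all counts of the proteasome genes. In Psmb4, the coding transcript took 41.36 ± 3.69% with sh3 and 46.13 ± 2.04% with empty TPLKO in LLC, and 44.66 ± 1.65% with sh3 and 43.9 ± 0.334% with empty TPLKO in UN-SCC679 (SD, n = 3 each). In the pLENTI6 libraries it took 85.25 ± 0.544% with OE_DSTYKwt and 85.28 ± 1.8% with the empty vector, and a retained-intron transcript took 14.23 and 14.18%, against 46.71 to 47.27% in the TPLKO groups of the same line. Psmc6, Psme2 and Psmf1 likewise had larger coding shares in the pLENTI6 than in the TPLKO libraries, and Psma3 had 10.98 to 20.23% in all 6 groups. The 2 experiments were deposited in separate tables, and levels of these genes set across them rest on how reads were shared among transcripts.

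In 4 proteasome pseudogenes, of Psmb5, Psmb6 and Psmb7, between 10 and 79 counts were listed over all 18 libraries, so few of the reads given to proteasome genes went to these copies.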
